A study of Homo sapiens with 20 samples.

Results

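The complement component genes considered here were C3, C1R, C1S, CFB, CFI and SERPING1, taken as the 6 rows with these symbols among the 36076 genes of the expression table. The values come from human lung cancer cell lines treated with the DNA methyltransferase inhibitor decitabine (DAC, 100 nM for 72 h, then 3 days without drug) or with PBS (Mock), all grown in RPMI-1640 with serum. mRNA-seq covered A549, CL1-0, CL1-5, PC9, H1299 and H1792, with 1 library per line and treatment (12 libraries). ATAC-seq, which maps accessible chromatin by transposase insertion, covered A549, CL1-5, PC9 and H1299 (8 libraries). All are established cultures, and DNA methylation and secreted complement protein were not analysed here. The study asked how DAC alters immune-related genes of the cancer cells, and the comparison here is DAC against Mock for complement mRNA.

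Complement is a cascade of plasma proteases that tags cells and microbes and can end in a membrane pore. In the classical pathway the recognition protein C1q activates the paired serine proteases C1r and C1s, which cleave C4 and C2 to form an enzyme that cleaves C3, the central component on which all pathways meet. Factor B (CFB) supplies the protease of the alternative pathway's C3-cleaving enzyme, factor I (CFI) inactivates C3b and C4b, and the C1 inhibitor (SERPING1) blocks C1r and C1s. The liver makes most plasma complement, and epithelial cells, fibroblasts and many tumours also transcribe these genes, several of which respond to interferons and inflammatory cytokines.

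On the reference annotation of GRCh37, the build of the files, C3 lies on the minus strand at chr19:6677715-6730573. Its upstream end shares 649 bp with GPR108 on the same strand. C1S (plus strand, chr12:7096351-7178336) and C1R (minus strand, chr12:7187513-7245203) are neighbours whose 3′ ends face each other. CFB occupies chr6:31913427-31919863 on the plus strand, CFI chr4:110652164-110723306 on the minus strand, and SERPING1 chr11:57364860-57386644 on the plus strand. CFB shares 6399 of its 6437 bp with the unnamed same-strand gene model ENSG00000244255, and CFI shares 70992 of 71143 bp with ENSG00000285330. Neither model is a row of the expression table, whose older annotation was not used here, so how reads in shared exons were assigned is not known. C1S also shares 29431 bp with LPCAT3 on the opposite strand, and whether the counting used strand is not given in the sources used here.

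Promoter sequences from RefSeq (GRCh38.p14 table) were matched for 3 of the 6 genes, C1R, CFB and CFI, and placed on GRCh37 by exact match. The stretch before the C1R start at the outer end of its promoter region is shown because every ATAC library had a peak there. It runs over chr12:7245042-7245291 on the minus strand, and capitals mark the 59 bases that the peaks of all 8 libraries covered.

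C1R upstream: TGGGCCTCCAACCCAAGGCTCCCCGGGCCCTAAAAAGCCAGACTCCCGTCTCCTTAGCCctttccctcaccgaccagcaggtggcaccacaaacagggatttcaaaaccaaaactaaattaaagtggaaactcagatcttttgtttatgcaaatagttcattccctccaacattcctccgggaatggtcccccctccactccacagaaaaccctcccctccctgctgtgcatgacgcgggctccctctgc

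The CFB stretch is shown because, of the 4 RefSeq promoters of these genes (C1R has 2), it alone held a match to both the interferon-stimulated and the gamma-activated pattern. It runs over chr6:31913622-31913871 on the plus strand. Capitals mark TTTCTGTTTC, which read on the other strand fits the interferon-stimulated element pattern (GAAA, any 2 bases, GAAA), from base 111 of the printed sequence, and TTCCGGGAA, a match to the gamma-activated pattern TTCNNNGAA, from base 159.

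CFB upstream: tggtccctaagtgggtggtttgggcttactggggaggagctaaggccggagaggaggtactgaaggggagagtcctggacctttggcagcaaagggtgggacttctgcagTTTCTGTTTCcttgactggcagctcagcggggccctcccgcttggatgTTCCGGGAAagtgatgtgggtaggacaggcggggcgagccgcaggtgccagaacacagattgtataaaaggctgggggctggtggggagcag

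Both strands were searched in windows of 250 bases before to 50 after each start, and the matches did not overlap each other. The interferon-stimulated pattern occurs in 3.57% and TTCNNNGAA in 7.66% of the 35116 RefSeq promoters, and an NF-kB-type pattern (GGG, any 3 bases, TTCC), found in 6.52%, had no match in these 4. The C1R promoter at the inner start held 1 TTCNNNGAA match (TTCCTGGAA), and the CFI promoter held none of the 3 patterns. The CFI window had 2 CpG sites, the CFB window 7 and the C1R windows 8 and 10, against a median of 14 over all promoters (quartiles 4 and 28). All of them were thus CpG-poorer than the median promoter. A letter match is a description of the sequence only.

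The third sequence lies upstream of CFI, where peaks appeared after DAC in lists that had none in Mock. It is the peak of the H1299 DAC library at chr4:110725364-110725595, given on the plus strand, and capitals mark the 52 bases at chr4:110725534-110725585 that the peaks of 4 libraries shared (H1299 Mock and DAC, and the DAC libraries labelled CL1-5 and PC9).

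CFI far upstream: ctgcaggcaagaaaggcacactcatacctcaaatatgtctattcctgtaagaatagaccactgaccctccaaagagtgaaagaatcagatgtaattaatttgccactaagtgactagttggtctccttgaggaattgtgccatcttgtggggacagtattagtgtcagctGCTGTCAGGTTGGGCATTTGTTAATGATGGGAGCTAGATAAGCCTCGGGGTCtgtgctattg

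Levels are given as FPKM, a fragment count scaled by transcript length and sequencing depth, and as the whole reads behind them, which could be recovered from the deposited values. The 10 libraries of the other lines held 22234485 to 25303899 reads on genes and the H1299 libraries 59735913 (Mock) and 52634234 (DAC). In H1299, 85.5% and 81.9% of genes with 1 to 20 reads had an even number, against 39.2% to 41.5% elsewhere, so a read there is not an independent count and no counting interval is given for H1299. Intervals in brackets are 95% intervals for counting error alone, since no line has a replicate within a treatment. Hepatocyte markers summed to at most 0.320 FPKM in any library. Fibroblast markers (COL1A1, COL3A1, DCN, LUM) summed to 99.9 FPKM in Mock and 146 in DAC in H1792, against medians over the lines of 1.70 and 3.32. H1792 also held keratins in Mock (KRT7 137, KRT19 75.1, KRT8 50.1 and KRT18 24.6 FPKM), with EPCAM at 4.32 and CDH1 at 1.33. In CL1-0 the 6 epithelial markers summed to 0.986 FPKM in Mock and 3.05 in DAC, with KRT7 and KRT19 at 0 reads in Mock, against medians of 218 and 500. The defining keratins of lung epithelium were thus nearly absent from CL1-0.

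C3, the component that all pathways cleave, was detected in every line and was higher after DAC in 6 of 6 (in H1299 it was lower under quantile normalization). Mock FPKM was 4.96 in PC9, 2.43 in A549, 1.05 in H1792, 0.331 in CL1-0, 0.301 in CL1-5 and 0.00840 in H1299 (4 reads). After DAC the same lines had 8.94, 17.6, 1.35, 0.470, 2.64 and 0.0318 FPKM (14 reads in H1299). A549 passed PC9 to become the line with the most C3, while the Mock values of CL1-0 and CL1-5, whose intervals overlap (0.255 to 0.421 and 0.234 to 0.382), separated after DAC. The ratio of DAC to Mock was 8.75 in CL1-5 (6.79 to 11.4), 7.24 in A549 (6.56 to 8.02), 1.80 in PC9 (1.66 to 1.96), 1.42 in CL1-0 (1.04 to 1.96) and 1.29 in H1792 (1.08 to 1.55). The difference was thus large in A549 and CL1-5 and small in PC9, CL1-0 and H1792. In bulk RNA, more expressing cells and more RNA per cell cannot be told apart.

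Across the 5 lines of the study's own comparison (H1792 is described beside them), the mean C3 difference was 1.42 ± 0.44 (SE) on the log2(FPKM + 0.1) scale, which understates the change of low genes (limma with line as a block, unadjusted p = 0.0137, adjusted p = 0.300 over 22603 genes). C3 therefore did not pass the threshold of 0.05. Mock and DAC levels of the lines overlap widely, since the lines differ from each other more than the treatments do.

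**Figure D1:**
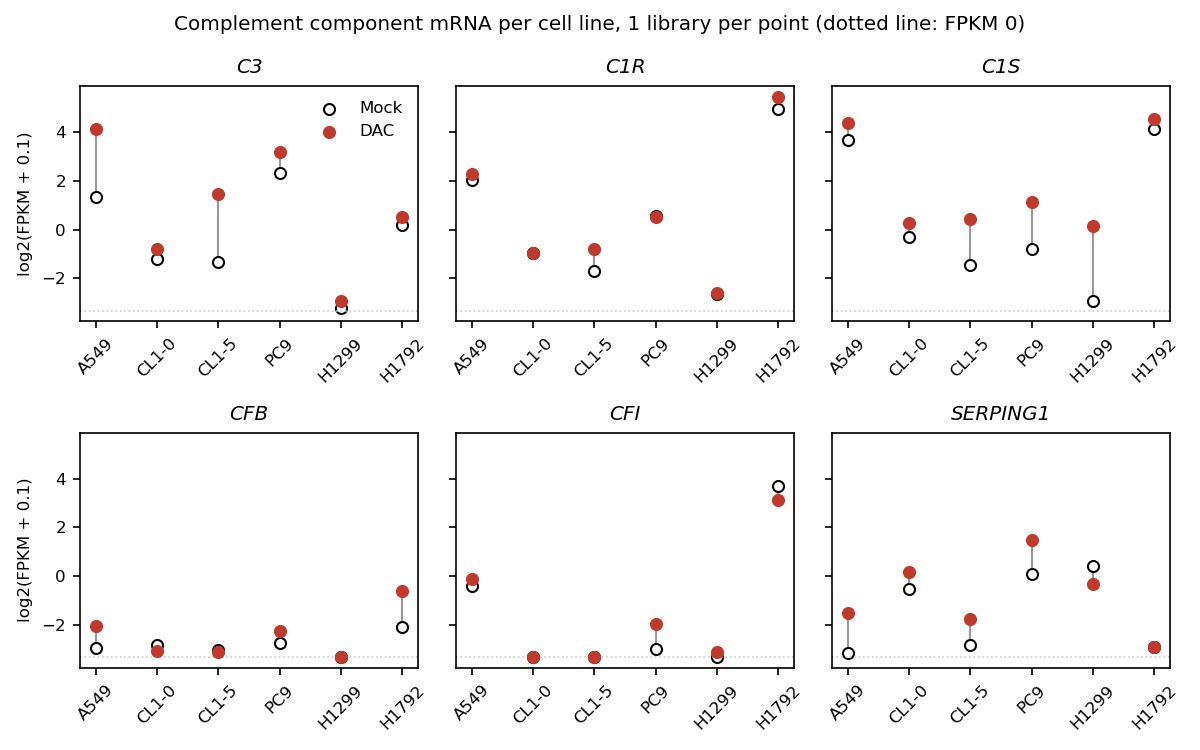
Level of each gene, as log2(FPKM + 0.1), in the Mock (open) and DAC (red) library of each of the 6 lines, with a grey line joining the pair and a dotted line at FPKM 0. C3 stands farthest apart between treatments in A549 and CL1-5, C1S in H1299, and C1R and CFI are highest in H1792.

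C1S, the protease that cleaves C4 and C2, was also higher after DAC in 6 of 6 lines. In Mock, C1S reached 17.6 FPKM in H1792 and 12.6 in A549, and was below 1 in CL1-0 (0.708), PC9 (0.484), CL1-5 (0.268) and H1299 (0.0325, 12 reads). CL1-0 and PC9 were neighbours in that order whose intervals overlapped (0.581 to 0.855 and 0.373 to 0.617). After DAC every line had more than 1 FPKM, with 23.3 in H1792, 20.7 in A549, 2.10 in PC9, 1.24 in CL1-5, 1.09 in CL1-0 and 1.02 in H1299 (348 reads). The 4 lines with low Mock levels thus came to lie close to each other.

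The ratio of DAC to Mock for C1S was 31.4 in H1299, 4.61 in CL1-5 (3.33 to 6.48) and 4.34 in PC9 (3.31 to 5.76). It was 1.64 in A549 (1.55 to 1.74), 1.54 in CL1-0 (1.22 to 1.96) and 1.33 in H1792 (1.26 to 1.39). The ratio was smallest in H1792, the line that already had the highest level. The mean difference over the 5 lines was 1.62 ± 0.37 (SE) on the log2 scale (limma, unadjusted p = 0.00266, adjusted p = 0.202), and C1S did not pass the threshold either. Without H1299 the mean was 1.26.

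C1R, the protease that activates C1s, had a smaller mean difference between treatments than its neighbour C1S. Mock FPKM was 30.8 in H1792, 4.01 in A549, 1.38 in PC9, 0.415 in CL1-0, 0.212 in CL1-5 and 0.0596 in H1299 (16 reads). The DAC libraries had 44.0, 4.73, 1.35, 0.417, 0.482 and 0.0645 FPKM in the same order, with 16 reads again in H1299. The order of the lines was kept except that CL1-5 and CL1-0, whose DAC intervals overlap, changed places. The ratio was 2.27 in CL1-5 (1.41 to 3.75), 1.43 in H1792 (1.37 to 1.49) and 1.18 in A549 (1.04 to 1.34), and the intervals of CL1-0 (0.671 to 1.51) and PC9 (0.769 to 1.24) include 1. The mean over 5 lines was 0.23 ± 0.21 (SE) on the log2 scale (limma, adjusted p = 0.642). C1R was higher in 4 of 5 lines as scaled by the authors, in 5 of 5 with a common sum of FPKM per library and in 2 of 5 under quantile normalization, so its direction depends on the scaling. Without CL1-5 the mean was 0.06. It shares 3021 bp with the same-strand neighbour C1RL.

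The C1S to C1R ratio within a library set the paired proteases side by side per length. As log2 of the ratio of FPKM + 0.1, it went from 1.62 to 2.10 in A549, from 0.65 to 1.21 in CL1-0 and from 0.24 to 1.20 in CL1-5. It went from -1.34 to 0.60 in PC9, from -0.27 to 2.77 in H1299 and from -0.81 to -0.91 in H1792. In PC9 the more abundant transcript changed from C1R to C1S. In H1299 the Mock library gave no order, with 16 C1R and 12 C1S reads, and the DAC library held 16 and 348. The mean change was 1.14 ± 1.15 (SD, n = 6), with 5 of 6 lines above 0 (two-sided exact permutation of signs, p = 0.0625, adjusted p = 0.125 over 2 ratios, where 6 lines allow no p below 0.03125).

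SERPING1, the inhibitor of both proteases, was not high in the same lines as they were. Mock FPKM was 1.24 in H1299, 0.975 in PC9 and 0.600 in CL1-0, against 0.0410 in CL1-5 (4 reads), 0.0336 in H1792 (3 reads) and 0.0130 in A549 (1 read). A549 and H1792, the lines with most C1S and C1R, thus held 1 and 3 reads of the inhibitor, which do not set them apart from CL1-5, since the 3 intervals overlap. After DAC the level was 2.73 in PC9, 1.03 in CL1-0, 0.709 in H1299, 0.252 in A549 (23 reads), 0.194 in CL1-5 (17 reads) and 0.0347 in H1792 (3 reads). H1299 was the line with a lower value after DAC (256 and 135 reads), and H1792 stayed at the floor of 3 reads in both libraries.

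The ratio for SERPING1 was 2.80 in PC9 (2.15 to 3.70), 1.72 in CL1-0 (1.22 to 2.45) and 4.74 in CL1-5 (1.55 to 19.4). It was 19.5 in A549, with an interval of 3.16 to 803 because the Mock library held a single read. In H1299 the DAC level was 0.571 times that of Mock. The mean over 5 lines was 0.81 ± 0.35 (SE) on the log2 scale (limma, unadjusted p = 0.0533, adjusted p = 0.406), and without H1299 it was 1.20 with an adjusted p of 0.306 in limma. The change in the SERPING1 to C1S log2 ratio was -0.74 ± 1.62 (SD, n = 6), higher in 2 of 6 lines (exact sign-flip permutation test, p = 0.375, adjusted p = 0.375), and it ranged from -3.81 in H1299 to 0.93 in A549. Without H1299 the mean change was -0.13.

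**Figure D2:**
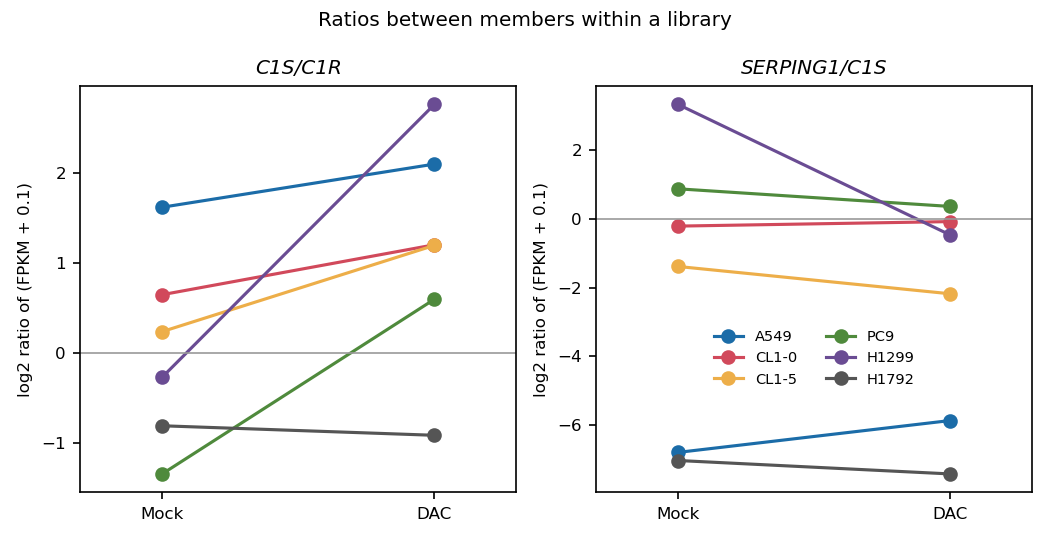
Log2 ratio of C1S to C1R (left) and of SERPING1 to C1S (right), each from FPKM + 0.1, in the Mock and DAC library of the 6 lines. C1S gains on C1R in 5 lines, most in H1299 (a change of 3.04), and SERPING1 moves up against C1S in 2 lines and down in H1299 by 3.81.

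CFB, the protease subunit of the alternative pathway, had few counted reads. Whether this reflects low transcription is not known, since 6399 of its 6437 bp are shared with ENSG00000244255. Mock libraries had 5 reads in CL1-0 and PC9, 3 in A549 and CL1-5, 0 in H1299 and 17 in H1792. DAC libraries had 18 reads in A549, 13 in PC9, 3 in CL1-0, 2 in CL1-5, 0 in H1299 and 66 in H1792. Only in H1792 did both libraries lie well above the floor of 3 reads, with 0.137 FPKM in Mock and 0.550 in DAC, a ratio of 4.01 (2.33 to 7.30). The A549 ratio was 5.08 with an interval of 1.48 to 26.9, and the PC9 interval (0.781 to 8.37) includes 1. The mean FPKM over the 10 libraries of the 5 lines was 0.0432, under the minimum of 0.1, so CFB was not tested. A count of 0 reads allows up to 3 (one-sided 95% limit).

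CFI, which inactivates C3b together with cofactors, was confined in Mock to H1792 (12.8 FPKM, 1231 reads) and A549 (0.650 FPKM, 54 reads), with at most 2 reads in the other lines. After DAC it was 8.74 FPKM in H1792 (813 reads), 0.816 in A549 (80 reads) and 0.156 in PC9 (14 reads against 2 in Mock), with 3 reads in H1299 and 0 in CL1-0 and CL1-5. The H1792 ratio of 0.683 (0.624 to 0.747) ran the other way from PC9 (6.29, interval 1.44 to 57.0), and the A549 interval (0.878 to 1.81) includes 1. Over the 5 lines the mean was 0.30 ± 0.25 (SE) on the log2 scale (limma, adjusted p = 0.612), with 3 lines higher, 2 at 0 in both libraries, and A549 lower under quantile normalization. Without PC9 the mean was 0.12. CFI, C1R and C1S were all highest in H1792, the line with the high fibroblast markers and the keratins given above. The part of such a state in these levels was not tested.

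**Figure D3:**
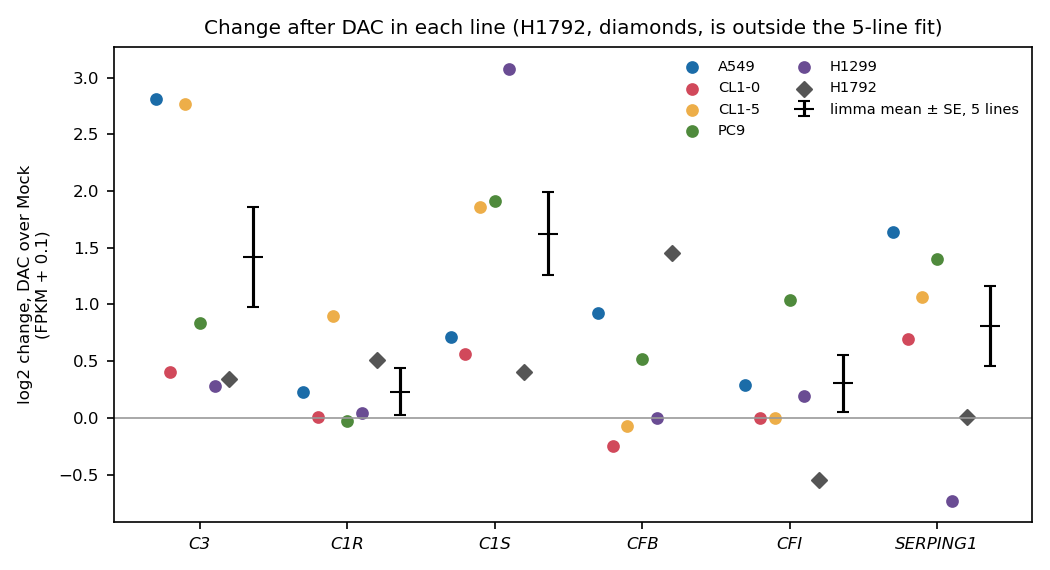
Change after DAC in each line as the log2 ratio of FPKM + 0.1 (circles, the 5 lines of the fit; diamonds, H1792), with the limma mean and its SE as a black bar for the 5 genes tested. As scaled by the authors, all 6 points lie above 0 for C3 and C1S (H1299 is below 0 for C3 under quantile normalization), C1R stands at 0.90 in CL1-5 and 0.51 in H1792 and closer to 0 in the other lines, and SERPING1 has H1299 below 0.

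Set against all genes, 0 of the 5 members tested passed the adjusted threshold, as against 27 of 22603 genes that were higher (0.119%) and 0 that were lower in limma. At an unadjusted p under 0.05, C3 and C1S were higher, in a table where 8.07% of genes were, and no member was lower, as 4.4% of genes were. C3 and C1S were higher in every one of the 5 lines and in every one of the 6, as were 6.76% and 4.54% of all genes tested. The log2 changes of C1S and C3 stood at percentiles 98.3 and 97.6 of all genes tested, and those of SERPING1, CFI and C1R at 92.8, 74.1 and 67.9. The voom fit on recovered reads gave C3 an adjusted p of 0.0712, the lowest of any member under any setting tried.

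Counted line by line as scaled by the authors, CL1-5 and PC9 had the most members at least 2-fold higher on the log2(FPKM + 0.1) scale. CL1-5 had C3, C1S and SERPING1 past that size, where 7.25% of all genes were. PC9 had C1S, CFI and SERPING1 (background 10.2%), and A549 had C3 and SERPING1 (15.5%). H1299 had C1S alone (8.18%), H1792 had CFB alone (10.3%) and CL1-0 had none (7.6%). These shares are over the genes tested in the 5-line fit, to which CFB does not belong. The gene with the largest difference thus varied between lines, and no member was 2-fold higher in every line. The order of the lines depends on the scaling. With a common sum of FPKM, C1S in A549 (log2 change 1.06) and C3 in PC9 (1.00) also passed that size. Under quantile normalization SERPING1 in CL1-5 (0.90) and A549 (0.86) and CFI in PC9 (0.53) did not.

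Members differed in how their levels ran over the 12 libraries, where the 2 libraries of a line share that line. C1R and CFI had a Pearson r of 0.95 and C1R and C1S of 0.88 on log2(FPKM + 0.1), while SERPING1 was negatively correlated with C1R (-0.55) and C1S (-0.56). Among genes with a mean of at least 1 FPKM, the closest to C3 were CD46 (r = 0.94), itself a complement regulator of the cell surface, RAB20 and GLI2. CD55 (r = 0.97), another surface regulator, DIPK1A and ZC3H8 were closest to C1R, and BAMBI (r = 0.95), SCARB1 and TMEM120B to C1S. PTGER2 (r = 0.99), DAB2 and HAS2 were closest to CFI, SH3BP2 (r = 0.95), DAPP1 and FOXJ2 to SERPING1, and MICALL2 (r = 0.95), CST4 and CST2 to CFB. With 6 lines behind 12 points, these values describe the lines rather than the treatment.

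The rest of the pathway was taken from a list of 50 further complement genes, of which 47 were in the table and 26 were tested. None passed the adjusted threshold in limma, and 7 of 26 were higher and 0 lower at an unadjusted p under 0.05, against 8.07% and 4.4% of all genes tested. Among these 7, C5AR2 met the minimum of 0.1 FPKM only through its DAC level. The mean was positive for 18 of 26 (69.2%) against 58.8% of all genes, and the median was 0.21 against 0.07. The median was 0.09 without A549 and 0.37 without CL1-5. Of the recognition and initiating molecules, 5 of 16 could be tested, with COLEC11, a lectin-pathway collectin, at 0.70 ± 0.28 (SE) and COLEC12 at -0.01 ± 0.23 as the extremes. The partners of C1R and C1S had few counted reads. C1QB was not in the table, C1QA had at most 4 reads in any library and C1QC at most 42. C2, the neighbour of CFB, had at most 67 reads. The same-strand model ENSG00000244255 begins at chr6:31895475, inside C2 (chr6:31865562-31913450), so how C2 reads were assigned is not known either. Reads of C4A (0.20) may be shared with its near-identical copy C4B.

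Further down the cascade, factor D (CFD), which cleaves factor B, had a mean of -0.55 ± 0.24 (limma, adjusted p = 0.408), C5 -0.24 ± 0.27, and C8G, a subunit of the pore-forming complex, 1.40 ± 0.19, higher in 5 of 5 lines with an adjusted p of 0.0716 in limma. Among fluid-phase regulators C4BPB, a chain of C4b-binding protein, was highest at 1.17 ± 0.36 and CLU, clusterin, lowest at -0.15 ± 0.16. Among membrane regulators CD55, which dissociates C3-cleaving enzymes, was highest at 0.41 ± 0.19 and CSMD1 lowest at -0.06 ± 0.27. Among 7 receptors tested, 4 were higher at an unadjusted p under 0.05 in limma, where 8.07% of all genes were. The means ran from ITGB2, the shared chain of complement receptors 3 and 4, at 1.43 ± 0.30 to CR2 at -0.01 ± 0.29. C5AR2, among those 4, averaged 0.0287 FPKM in Mock and 0.545 in DAC. It and CD93 (0.0157 and 0.189) met the minimum of 0.1 FPKM only through DAC, so they could enter only by rising.

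**Figure D4:**
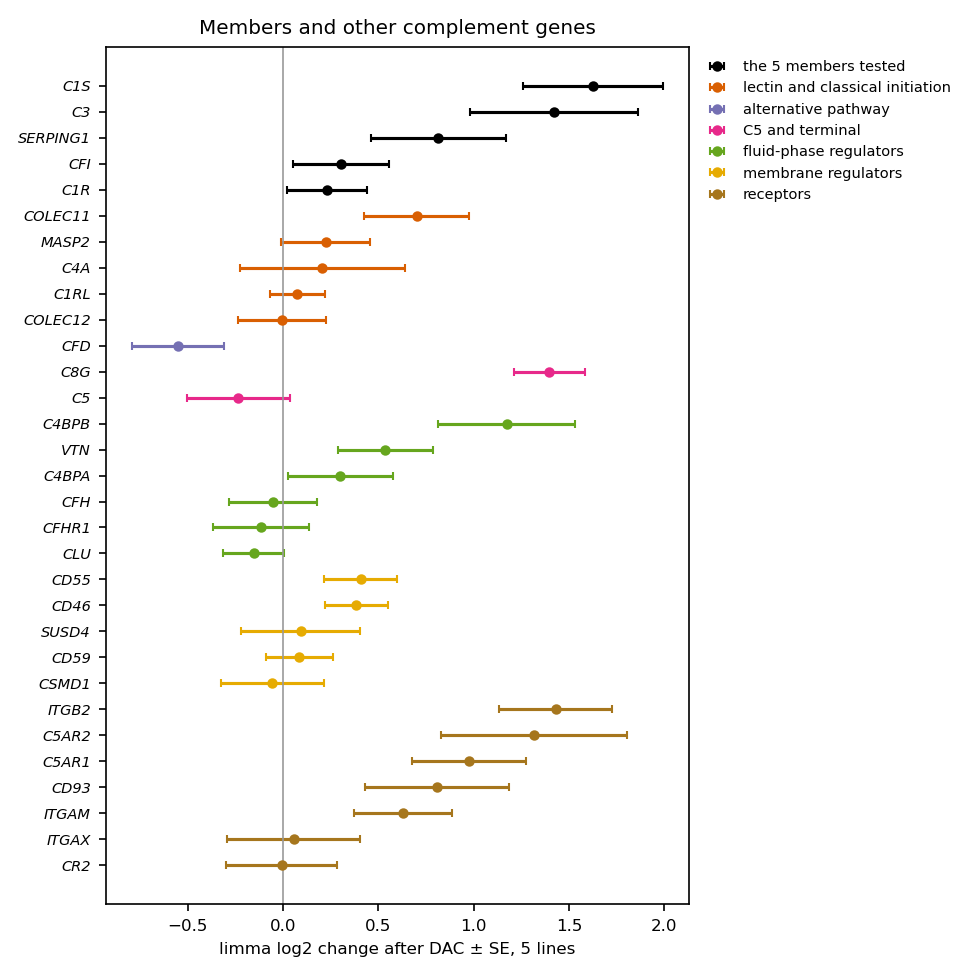
Mean log2 change after DAC over the 5 lines, with its SE from limma, for the 5 members tested (black) and the 26 other complement genes tested, coloured by role. C1S and C3 (1.62 and 1.42) lie in the same range as ITGB2 (1.43) and C8G (1.40), and CFD lies lowest at -0.55.

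ATAC-seq peaks were compared by rank, since fold enrichment over local background is comparable only within a peak list. Each gene's strongest peak within 3000 bp of a start site, as the authors assigned peaks to genes and starts, was ranked within its list. The ranking held the 19052 genes with such a peak in any list, and genes lacking a peak in a given list shared its lowest rank. The DAC lists were longer (63541 to 97584 peaks) than the Mock lists (45354 to 85710), and the median change in percentile over all genes was -1.92 in A549, -2.01 in H1299, -0.77 for the label CL1-5 and -1.53 for the label PC9, so a small negative change is what most genes had. Reference start sites, all those of the annotation with no regard to the authors' assignment, were tried beside them. The lists labelled CL1-5 and PC9 carried each other's names inside. Of 138 genes with PC9 mRNA of at least 5 FPKM and at most 0.1 in CL1-5, 95.7% had a promoter peak in the Mock list labelled CL1-5 and 53.6% in that labelled PC9, and the 79 opposite genes showed 63.3% and 88.6%. These libraries are therefore named by label only and set beside no mRNA value of either line. Exchanging them moves Mock and DAC together and leaves every mean over the 4 lines as it is.

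C1R was the member with a peak near its start in all 8 libraries, at 2.32 to 3.71-fold enrichment, over the 247 bp at chr12:7245233-7245479 that all shared. Its strongest promoter peak lay there except in the H1299 DAC list, where one 2109 bp downstream of a start was stronger (2.67-fold, against 2.32-fold). The percentile was 29.7 in Mock and 33.0 in DAC in A549, 35.5 and 30.5 in H1299, 23.2 and 28.5 for the label CL1-5, and 32.3 and 23.3 for the label PC9. The mean change was -1.35 ± 6.73 (SD, n = 4; exact sign-flip permutation test, p = 0.75, adjusted p = 0.75 over 5 members, where 4 lines allow no p below 0.125). The peak was present also in H1299, whose libraries held 16 C1R reads each.

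C1S had a peak over an internal start site, at 8.23-fold enrichment in Mock and 8.45-fold in DAC in A549 (percentiles 79.8 and 84.9), and at 4.56-fold and 5.13-fold for the label CL1-5 (50.3 and 73.3). That was the strongest peak of any member and it was there before treatment. The DAC list labelled CL1-5 held a further peak over the outermost start (3.69-fold), where its Mock list had none. The lists labelled PC9 had no C1S promoter peak in Mock or DAC, and those of H1299 had none as assigned by the authors. The H1299 DAC list held a peak 7172 bp into the gene from its assigned start (2.67-fold), which lies within 3000 bp of other C1S starts of the reference annotation, where the Mock list had no peak. C1S reads in H1299 were 12 and 348. The mean change in percentile was 5.93 ± 11.8 (SD, n = 4; exact sign-flip permutation test, p = 0.5, adjusted p = 0.75). It was 0.27 without the label CL1-5 and 10.5 with reference start sites, with 3 of 4 lines higher.

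CFI gained a promoter peak in 3 lists. In A549 it lay 2953 bp downstream of the start (3.45-fold), for the label CL1-5 2199 bp upstream (3.23-fold) and for the label PC9 1935 bp upstream (3.69-fold). Of genes without a promoter peak in Mock, 38.6%, 33.5% and 40.1% gained one in these lists and 30.1% in H1299, so a gain was common. H1299 had the upstream peak in both libraries, at 3.64-fold and 4.26-fold. The percentile went from 11.6 to 29.7 in A549, from 9.58 to 33.7 and from 10.7 to 39.5 for the labels CL1-5 and PC9, and from 41.7 to 53.6 in H1299. The mean change was 20.7 ± 7.31 (SD, n = 4), higher in 4 of 4 lines (exact sign-flip permutation test, p = 0.125, adjusted p = 0.625). In the 3 lists without a Mock peak CFI held the shared lowest rank and could hardly fall. Its direction there was not free, so this test cannot decide. With only peaks at q under 0.01 the mean change was 13.3, higher in 3 of 4 (exact sign-flip permutation test, p = 0.25), since the DAC peak under the label CL1-5 had a −log10 q of 1.80. CFI reads in A549 and H1299 were 54 and 0 in Mock and 80 and 3 in DAC.

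As assigned by the authors, SERPING1 lost its promoter peak in A549 (3.24-fold in Mock) and in H1299 (3.56-fold in Mock), as did 5.71% and 6.02% of genes with a Mock promoter peak in these lines. Under both other labels a peak was kept, where 6.03% (CL1-5) and 5.34% (PC9) of genes lost theirs. On reference start sites the A549 DAC list still held a peak (2.85-fold), and H1299 alone lost it. The SERPING1 mRNA ran in opposite directions in A549 and H1299, with 1 and 23 reads in A549 and 256 and 135 in H1299. The mean change in percentile was -13.4 ± 13.0 (SD, n = 4; exact sign-flip permutation test, p = 0.25, adjusted p = 0.625). It was -6.60 with reference start sites, with 2 of 4 lines higher, and -8.32 without H1299.

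C3 had a peak 1348 to 1539 bp downstream of its start in A549 and under the label PC9 in both treatments. H1299 had it in Mock and no peak assigned to C3 in DAC, where a peak of 2.50-fold lay within 3000 bp of a reference start. The DAC list labelled CL1-5 held instead a peak over the start itself (3.67-fold), where the Mock list had one 2406 bp upstream (2.99-fold). In A549, with C3 at 2.43 and 17.6 FPKM, the downstream peak had 3.45-fold enrichment in Mock and 4.02-fold in DAC, percentiles 30.5 and 37.0. The mean change was -2.21 ± 18.3 (SD, n = 4; exact sign-flip permutation test, p = 0.75, adjusted p = 0.75). On reference starts A549 had stronger peaks that were not assigned to C3, at 6.19-fold in Mock and 6.51-fold in DAC. The upstream end of C3 overlaps GPR108 by 649 bp. Which gene these peaks and the 2.50-fold peak in H1299 belong to was not tested. CFB had no promoter peak in any library.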

How the data were processed

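mRNA-seq (12 libraries) and ATAC-seq (8) were grouped by the labels into Mock and DAC. The authors trimmed and aligned reads to hg19 (the sources name RSEM with bowtie2 in the methods, and TopHat2 2.1.1 in the submitters' processing notes), counted genes on GENCODE release 25, and deposited FPKM from DESeq2 1.24.0. The deposited mean normalized count per gene, a signal column, served with the FPKM to recover whole reads (100% of values above 0 and below 100000 reads lay within 0.01 of a whole read). The authors' log2 fold changes, standard errors, test statistic (a score) and p-values were not used. Peak lists were made by the authors per library with BWA 0.7.17-r1188, Picard 2.21.4, SAMtools 1.9, MACS2 2.2.5 and ChIPseeker 1.20.0, and they hold fold enrichment (a ratio), −log10 p and q, a score and the distance to the closest start site, as deposited.

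FPKM were tested as log2(FPKM + 0.1) with limma 3.58.1 (R 4.3.3), blocked by line and with the variance trended on level, for genes averaging 0.1 FPKM or more over 10 libraries, with Benjamini-Hochberg adjustment over 22603 genes. Pairs come from the same line by label. Deviations from the mean of the 5 lines within a treatment correlated at 0.731 to 0.900 for the 2 libraries of a line. Those of different lines correlated at no more than 0.115, a value that removing this mean lowers by itself. P-values measure the spread between lines only. Ratios and peak percentiles used exact two-sided sign-flip tests over lines (numpy 2.4.6). Counting intervals were exact Poisson limits for levels and exact binomial limits for ratios of DAC to Mock (scipy 1.17.1). Peak coordinates fitted all 24 chromosome lengths of GRCh37.

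Named genes were the 6 members, the highest and lowest tested gene of each role in the complement list, C2, the 3 genes most correlated with each member, and an interferon and an acute phase list. The members and lists were chosen with earlier results of these data known. Tried alternatives were 6 lines, no block, pseudocounts of 1 and 0.01, other filters, scalings, voom, and leaving out each line, and for peaks a q under 0.01, a window of 1000 bp, equal peak numbers and reference start sites.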

Additional observations from a re-analysis of the deposited data

Results flagged for a closer look

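SERPING1 differed in direction between lines: its log2 change after DAC was -0.73 in H1299 (256 and 135 reads) and positive by more than 0.5 in A549, CL1-0, CL1-5 and PC9. CFI differed likewise, with a log2 change of -0.55 in H1792 (1231 and 813 reads) against 1.04 in PC9 (2 and 14 reads). With 1 library per line and treatment, neither difference was tested. The CFI promoter peak in the Mock library of H1299 stood apart from the other 3 Mock lists, at percentile 41.7 where they had no CFI peak. Genes without a peak share the lowest rank of their list, so a peak in a single list can give such a gap by construction. The chance rate for such gaps, about 1 set in 20, holds for values without such ties and does not apply to it. It was the only gap found in the 33 sets of values examined this way.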

How the results depend on the processing

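No member passed the adjusted threshold in limma under any alternative, and the mean change of C3, C1R, C1S, CFI and SERPING1 kept its positive sign in all of them. The size moved more: C1S (1.62) from 0.76 with a pseudocount of 1 to 2.04 with 0.01, SERPING1 (0.81) from 0.28 to 1.39 with the same pseudocounts, C3 (1.42) from 0.97 with a pseudocount of 1 to 2.05 with voom, CFI (0.30) from 0.07 to 1.13 and C1R (0.23) from 0.04 under quantile normalization to 0.40 with voom. The change in the C1S to C1R ratio (1.14) was 0.54 with a pseudocount of 1, and that of SERPING1 to C1S (-0.74) was -0.47. CFI could not be tested without A549 or at a mean FPKM of at least 1, SERPING1 not at the latter, and CFB only without a filter (0.23, adjusted p = 0.646). The count of genes called higher (27) was 53 with 6 lines, 0 with a pseudocount of 1, 2 with no filter, 17 under quantile normalization, 6 without the trend, 199 with voom and 0 to 22 with a line left out (0 without A549 or CL1-5, 5 without CL1-0, 12 without PC9). The count called lower (0) was 0 to 1 with a line left out. Without the replicate block, which ignores the pairing by line, 10 genes were called higher. The median of all genes, 0.07, was 0.17 with a common sum, 0.17 with voom and -0.04 under quantile normalization. The median of the complement list (0.21) was 0.51 with voom, where 3 of its 26 genes were called.

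For promoter peaks, the mean change of C3 (-2.21) turned to 1.92 with a q under 0.01, 7.38 with the window of 1000 bp and 1.46 with reference start sites, and ranged from -8.71 to 5.42 with a line left out. That of C1R (-1.35) was 0.14 with reference start sites and ranged from -3.55 to 1.19. The value of C3 with reference start sites includes peaks not assigned to C3. CFI had no value within 1000 bp. The causes were not tested. Levels under 3 reads, as for CFB, lie at the floor of the depth.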

Other observations

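An interferon-response list and an acute phase and NF-kB list, chosen because several complement genes respond to these cytokines, gave the following values over the same 5 lines. All 8 interferon-response genes had a positive mean log2 change, as did 58.8% of all genes tested, with a median of 1.23, from IFI27 at 3.51 ± 0.69 (SE) to PSMB9 at 0.54 ± 0.38. None passed the adjusted threshold in limma, and 5 were higher at an unadjusted p under 0.05, where 8.07% of all genes were. The median in a single line was 2.56 in CL1-5, 1.95 in A549, 1.27 in H1299, 0.86 in H1792, 0.58 in PC9 and 0.00 in CL1-0.

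The 8 acute phase and NF-kB genes also had positive means, with a median of 1.07, from SAA1 at 3.26 ± 0.63 to NFKBIA at 0.30 ± 0.21. None passed the adjusted threshold in limma, and 5 were higher at an unadjusted p under 0.05, against the same shares of all genes. SAA2, among these 5, averaged 0.00157 FPKM in Mock and 0.285 in DAC, so it met the minimum of 0.1 FPKM only through DAC. Their median was 2.36 in H1792, 2.04 in PC9, 1.75 in A549, 1.26 in H1299, 0.38 in CL1-5 and 0.02 in CL1-0. No relation of either order with the complement genes was tested.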
